A study of Mus musculus with 6 samples.

Results

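The matrix metalloproteinases (MMP), the ADAM and ADAMTS metalloproteinases and the tissue inhibitors of metalloproteinases (TIMP) were followed in mouse cumulus cells, which enclose the oocyte inside the growing follicle. Members were all genes whose symbol is Mmp, Adam, Adamts or Timp followed by a number and at most 1 letter, taken from probe sets annotated to exactly 1 gene, with the probe set of the highest mean over all samples standing for the gene. This gave 65 genes of 18194 on the array, namely 18 MMP, 28 ADAM, 15 ADAMTS and 4 TIMP genes, measured by 116 probe sets. Cumulus cells came from wild-type female mice that received 5 IU of equine chorionic gonadotropin (eCG) at 21 days of age to make follicles grow. In the hCG-6h group (3 samples), 5 IU of human chorionic gonadotropin (hCG), which sets off ovulation, followed 46 h later and cells were taken after 6 h. In the hCG-0h group (3 samples), cells were taken at 46 h of eCG with no hCG. Both groups thus share the eCG priming, and no group was kept for the further 6 h without hCG, so hCG and the longer time cannot be told apart. All animals were 23 days old when cells were taken, per the labels. Each sample held the cells of 50 complexes of oocyte and cumulus, collected in medium with milrinone, which blocks oocyte maturation, and went onto 1 array. Separate animals are not stated for the samples, so p-values measure the spread between these samples, which may be technical. Titles call all later samples hCG-6h, but the description of hCG-6h sample 2 gives 7 h and that of sample 3 gives 8 h.

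MMPs are secreted or membrane-anchored zinc proteases that cut collagens, laminins and other matrix proteins, and many are made as inactive proforms. ADAMs are membrane-anchored relatives, some of which cut growth factors and receptors from the cell surface, a step called shedding, while others have no protease activity. ADAMTS enzymes are secreted and bind the matrix, where several cut proteoglycans such as versican and aggrecan and others process procollagen. TIMPs block the active site of these enzymes. In the ovulating follicle, ADAMTS1 is known to cut versican in the expanding cumulus matrix, and in the pig ADAM17 is known to release EGF-like ligands from cumulus cells.

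Across the whole array, 21.3% of genes differed between hCG-6h and hCG-0h (limma, Benjamini-Hochberg adjusted p under 0.05 over all genes), 10.8% higher and 10.5% lower at hCG-6h. Array medians lay between 6.43 and 6.46 on the log2 scale. Of 9 measured markers of cumulus and granulosa cells, Inha, the inhibin alpha subunit, had a mean log2 level of 13.39 at hCG-6h and 13.46 at hCG-0h, while 5 others, among them the FSH receptor gene Fshr, fell. Among 12 oocyte markers, 1 rose, Ooep, with a log2 change of 1.93, and the linear levels of the 12 summed to between 924 and 1055 at hCG-6h, against 533 to 678 at hCG-0h. None of 6 endothelial, 7 leukocyte and 7 fibroblast and smooth muscle markers passed, and their summed linear levels were 390 to 593, 427 to 485 and 632 to 734 at hCG-6h, against 212 to 352, 355 to 454 and 586 to 712 at hCG-0h. Nearest to passing among the endothelial markers was Cdh5 (log2 change 1.63, adjusted p = 0.053), while the median log2 change of the 6 was 0.16. The theca marker Cyp17a1 had a mean log2 level of 5.83 at hCG-6h and 5.84 at hCG-0h. Of the 3 measured theca markers the other 2, Ptch1 and Aldh1a1, fell, and the 3 summed to between 656 and 816 at hCG-6h, against 1547 to 1883 at hCG-0h. What such cells contribute to the members' values was not tested, and fewer cells of a type cannot be told apart from less RNA per cell.

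The members as a whole changed about as often as other genes. Of the 65 genes, 10 rose and 3 fell, which is 20.0% against 21.3% of all genes, and 52 did not pass. Their median log2 change was 0.05, against 0.01 over all genes. The groups did not overlap, higher at hCG-6h, in 17 members (19.3% of all genes) and, lower at hCG-6h, in 7 (18.7% of all genes), together 36.9% of members, against 37.9% of all genes. Many members were dim, meaning a mean log2 level under 6.08, the limit below which 1 in 3 genes of the array lie. This held for 34 of the 65 members. RMA, the authors' normalisation, pulls such genes toward a floor and compresses their changes, and detection calls were not used here. Among the 31 members above that limit, 7 rose and 2 fell (29.0%, against 29.2% of all genes above it). Among the 34 dim members, 3 rose and 1 fell (11.8%, against 5.41% of all dim genes).

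ADAMTS genes changed in both directions, with 4 of 15 higher and 3 lower at hCG-6h, or 46.7%, against 21.3% of all genes. Among TIMPs, 2 of 4 rose and none fell, or 50%. Of 18 MMP genes, 3 rose and none fell, or 16.7%, close to the share of all genes. Only 1 of 28 ADAM genes passed, Adam19, which rose. At an unadjusted p under 0.05 there were 4 of 28, against 5990 of all 18194 genes. Median log2 changes were 0.37 for TIMPs, 0.09 for MMPs, -0.03 for ADAMs and -0.05 for ADAMTS genes, and the range was widest in ADAMTS genes, from -2.82 to 1.60. The families differ in how many members were dim (1 of 4 TIMPs, 9 of 18 MMPs, 17 of 28 ADAMs and 7 of 15 ADAMTS genes), and no test compared them. Above the limit, 3 of 9 MMPs, 0 of 11 ADAMs, 4 of 8 ADAMTS genes and 2 of 3 TIMPs passed. Of all genes above it, 29.2% passed, close to the 33.3% of MMPs.

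**Figure D1:**
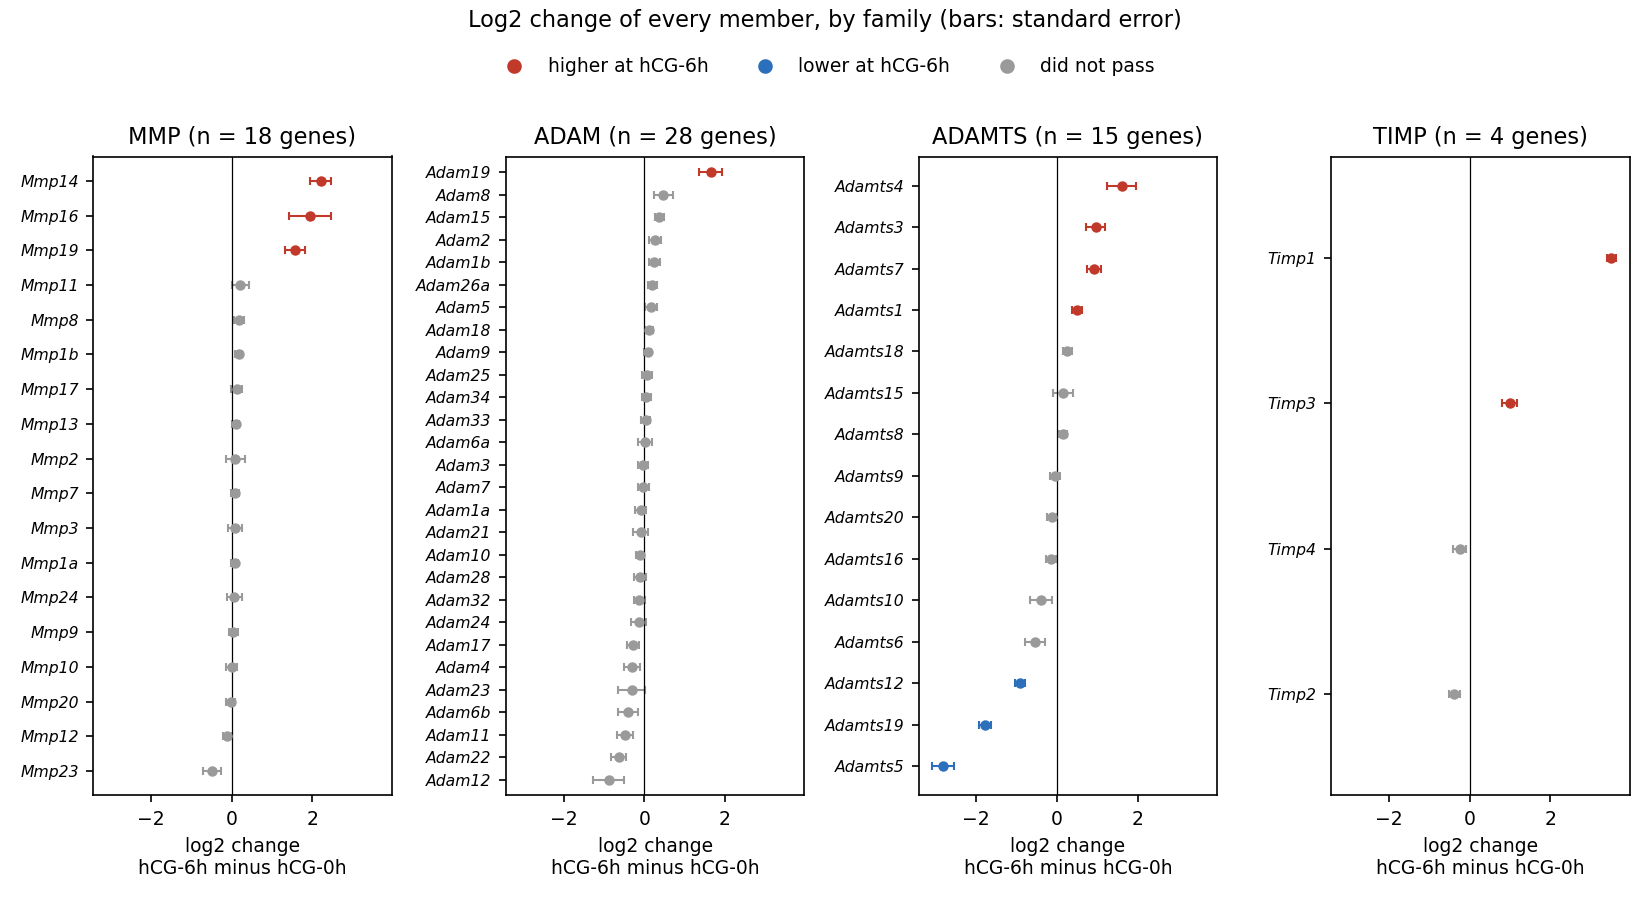
Log2 change (hCG-6h minus hCG-0h, x axis) of all 65 members in 4 panels by family, each point a gene with limma's standard error, red for genes higher and blue for genes lower at hCG-6h, grey for those that did not pass. ADAMTS genes spread from -2.82 to 1.60, whereas 27 of 28 ADAM genes are grey.

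TIMP1, a secreted inhibitor of most MMPs, had the largest change of all members. Timp1 stood at log2 levels of 12.46, 12.41 and 12.45 in hCG-6h samples 1, 2 and 3, against 8.81, 8.84 and 9.13 in the hCG-0h samples. All 3 samples after hCG lay more than 3 log2 units above every sample before it, and the spread among them was small (SD 0.03). The log2 change was 3.51 ± 0.12 (SE, adjusted p = 1.57e-05), a rise of 11.4-fold that ranked 87 from the top among all genes. Its call was the same under every alternative run.

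TIMP3, which binds to the matrix and blocks ADAM and ADAMTS enzymes as well as MMPs, rose less. Timp3 had log2 levels of 8.20, 8.38 and 8.00 at hCG-6h, against 6.81, 7.42 and 7.38 at hCG-0h, with no overlap and a change of 0.99 ± 0.19 (SE, adjusted p = 0.013), or 1.99-fold. Its 4 probe sets did not all move. Log2 changes were 0.99 to 1.00 in 3 of them, of which 2 passed, and -0.08 ± 0.37 in the fourth (adjusted p = 0.917). TIMP2, an inhibitor that also takes part in the activation of pro-MMP2 by MMP14, tended the other way. Timp2 stood at 7.82, 8.24 and 7.83 at hCG-6h, against 8.43, 8.25 and 8.34 at hCG-0h, groups that nearly touched, with a log2 change of -0.38 ± 0.14 (adjusted p = 0.12). It passed without hCG-6h sample 2 (log2 change -0.52, adjusted p = 0.0388). All 6 Timp2 probe sets had changes below 0, from -1.16 to -0.30, and 1 of them passed. Timp4, a TIMP known mainly from heart and brain, was dim in both groups, at 5.41 to 5.70 at hCG-6h and 5.56 to 6.03 at hCG-0h, and did not pass (adjusted p = 0.331).

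Among MMPs, the genes that rose encode 2 membrane-anchored enzymes and MMP19. Mmp14, the membrane-type 1 MMP that cuts collagens and activates pro-MMP2, had log2 levels of 10.23, 10.53 and 10.64 at hCG-6h, against 8.41, 8.70 and 7.67 at hCG-0h. Every sample after hCG was at least 1.5 log2 units above every sample before it. The log2 change was 2.21 ± 0.27 (SE, adjusted p = 0.00179), or 4.62-fold, and all 3 Mmp14 probe sets rose, with changes of 1.58 to 2.32. Mmp16, the membrane-type 3 MMP, varied more, with 7.73, 6.73 and 8.49 at hCG-6h, against 6.51, 5.01 and 5.59 at hCG-0h. The lowest sample after hCG lay just above the highest before it, and the log2 change was 1.95 ± 0.52 (adjusted p = 0.0408). That call was lost when sample 2 or 3 of hCG-0h, or sample 1 or 3 of hCG-6h, was left out (log2 changes of 1.53 to 1.91, adjusted p = 0.104 to 0.112), and 2 of 4 probe sets passed. The other 2 membrane-type MMPs measured did not pass. Mmp17 averaged 6.70 at hCG-6h and 6.57 at hCG-0h, and Mmp24 averaged 8.07 and 8.00 (adjusted p = 0.565 and 0.85).

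Mmp19, a secreted MMP described in growing and ovulating follicles of the mouse, had log2 levels of 7.46, 7.66 and 7.72 at hCG-6h, against 5.92, 6.58 and 5.62 at hCG-0h. Groups were well apart, with a log2 change of 1.57 ± 0.24 (adjusted p = 0.0049), or 2.98-fold, and both probe sets rose.

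The gelatinases, which cut denatured and basement membrane collagen, did not pass. Mmp2 stood at 5.71, 5.85 and 6.47 at hCG-6h, against 6.00, 5.63 and 6.13 at hCG-0h, and Mmp9 at 6.38, 6.35 and 6.24, against 6.44, 6.25 and 6.15. Both groups overlapped in each gene, and the 95% intervals of the log2 change ran from -0.46 to 0.64 for Mmp2 and from -0.23 to 0.32 for Mmp9. A change as large as that of Mmp14 lies outside both intervals, as measured by these probe sets. However, Mmp2 was dim in both groups, and Mmp9 (mean log2 level 6.30 over all samples) lay close to the limit of 6.08. Changes at such levels are compressed, so the intervals do not exclude a larger change of the transcripts. Mmp11, a stromelysin, averaged 9.67 ± 0.21 at hCG-6h and 9.45 ± 0.36 at hCG-0h (SD, n = 3 each, adjusted p = 0.524). Mmp23, a membrane-associated MMP described in ovary, averaged 9.67 ± 0.30 at hCG-6h and 10.16 ± 0.36 at hCG-0h (SD, n = 3 each, adjusted p = 0.19).

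Several MMP genes, the collagenases among them, form a cluster of neighbours in the mouse genome (RefSeq genes of GRCm38.p6). Its 9 members on the array, Mmp13, Mmp12, Mmp1b, Mmp3, Mmp1a, Mmp10, Mmp8, Mmp20 and Mmp7, had no call. Their log2 changes lay between -0.11 and 0.18 and their mean levels at hCG-0h between 3.00 and 6.16. All 9 but Mmp3 were dim, and of all dim genes on the array only 5.41% passed. The 3 MMP genes that rose lie outside this cluster, but whether its position matters was not tested.

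ADAMTS1, a protease that cuts versican and depends on the progesterone receptor in granulosa cells of the mouse, rose little. Adamts1 had log2 levels of 11.69, 11.69 and 11.91 at hCG-6h, against 11.34, 11.33 and 11.13 at hCG-0h. Groups did not overlap, and the log2 change was 0.50 ± 0.12 (SE, adjusted p = 0.026), or 1.41-fold. The call was lost when sample 2 or 3 of hCG-0h, or any 1 sample of hCG-6h, was left out (log2 changes of 0.42 to 0.53, adjusted p = 0.054 to 0.0791), and the gene had a single probe set. The 95% interval of the change ran from 0.22 to 0.78, so that, by this probe set, a 2-fold rise lies outside it.

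ADAMTS5, an aggrecanase that also cuts versican, fell more than any other member. Adamts5 stood at 7.05, 7.17 and 7.02 at hCG-6h, against 9.35, 9.86 and 10.49 at hCG-0h. The 3 samples after hCG were close together (SD 0.08) and all more than 2 log2 units below the lowest sample before hCG, where the spread was larger (SD 0.57). The log2 change was -2.82 ± 0.27 (SE, adjusted p = 0.000635), which is 7.06-fold lower and ranks 65 from the bottom among all genes. All 4 Adamts5 probe sets fell, with changes of -2.82 to -0.76. Adamts1 and Adamts5 are neighbours in the genome, with no other protein-coding gene listed between them, and they moved in opposite directions.

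Adamts4, the other classical aggrecanase, was dim before hCG and rose. Its log2 levels were 6.74, 5.50 and 6.82 at hCG-6h, against 4.91, 4.44 and 4.91 at hCG-0h. All samples after hCG lay above all samples before it, with hCG-6h sample 2 the nearest, and the log2 change was 1.60 ± 0.36 (adjusted p = 0.022). The call was lost when any 1 sample of hCG-0h, or sample 1 or 3 of hCG-6h, was left out (log2 changes of 1.37 to 1.68, adjusted p = 0.0543 to 0.0705). Both Adamts4 probe sets rose.

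Adamts9, another protease of versican, had probe sets that disagreed. The probe set used for the gene stood at 8.93 ± 0.11 at hCG-6h and 8.98 ± 0.16 at hCG-0h (SD, n = 3 each, adjusted p = 0.816). A second one averaged 7.60 at hCG-6h and 6.21 at hCG-0h, a change of 1.38 ± 0.21 (adjusted p = 0.00525 over all probe sets), and the third had 0.05 ± 0.30. Whether the gene changed therefore depends on the probe set. Adamts15, Adamts8 and Adamts20, the remaining members of the proteoglycan-cutting group, were dim in every sample (3.73 to 4.30, 3.47 to 3.61 and 2.99 to 3.09 at hCG-6h, against 3.53 to 4.32, 3.33 to 3.45 and 3.04 to 3.36 at hCG-0h) and did not pass.

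ADAMTS7 and ADAMTS12, a pair of related enzymes that cut cartilage oligomeric matrix protein (COMP), moved in opposite directions. Adamts7 had log2 levels of 8.29, 7.73 and 8.31 at hCG-6h, against 7.21, 7.22 and 7.12 at hCG-0h. Every sample after hCG was higher, with a log2 change of 0.93 ± 0.17 (adjusted p = 0.0105), and the call was the same under every alternative run. Adamts12 had 5.63, 5.56 and 5.73 at hCG-6h, against 6.40, 6.74 and 6.52 at hCG-0h, with no overlap and a log2 change of -0.91 ± 0.12 (adjusted p = 0.00276). Its other probe set, dim throughout, had -0.15 ± 0.13 and did not pass.

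Adamts19, whose enzyme has no well-known substrate, had log2 levels of 4.71, 4.34 and 4.30 at hCG-6h, against 6.33, 6.32 and 6.06 at hCG-0h. All samples after hCG were lower by over 1.3 log2 units, and the log2 change was -1.79 ± 0.15 (adjusted p = 0.000367), or 3.45-fold lower. Adamts19 had a single probe set and was dim (mean log2 level 5.34 over all samples), a range where changes are compressed. Adamts3, which processes procollagen, was dim in all samples, at 4.29, 5.26 and 4.93 at hCG-6h, against 3.98, 3.89 and 3.74 at hCG-0h. Its log2 change was 0.96 ± 0.24 (adjusted p = 0.0331), a call that was lost without any 1 of the hCG-0h samples or without hCG-6h sample 2 or 3 (log2 changes of 0.74 to 1.01, adjusted p = 0.0711 to 0.0999). The other Adamts3 probe set had -0.05 ± 0.17. The remaining ADAMTS genes, Adamts6, Adamts10, Adamts16 and Adamts18, had log2 changes between -0.54 and 0.26 by the probe sets used and did not pass. The other Adamts10 probe set had -0.72 ± 0.21, without overlap (adjusted p = 0.0591), and the other Adamts16 probe set had 0.42 ± 0.29 (adjusted p = 0.388).

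**Figure D2:**
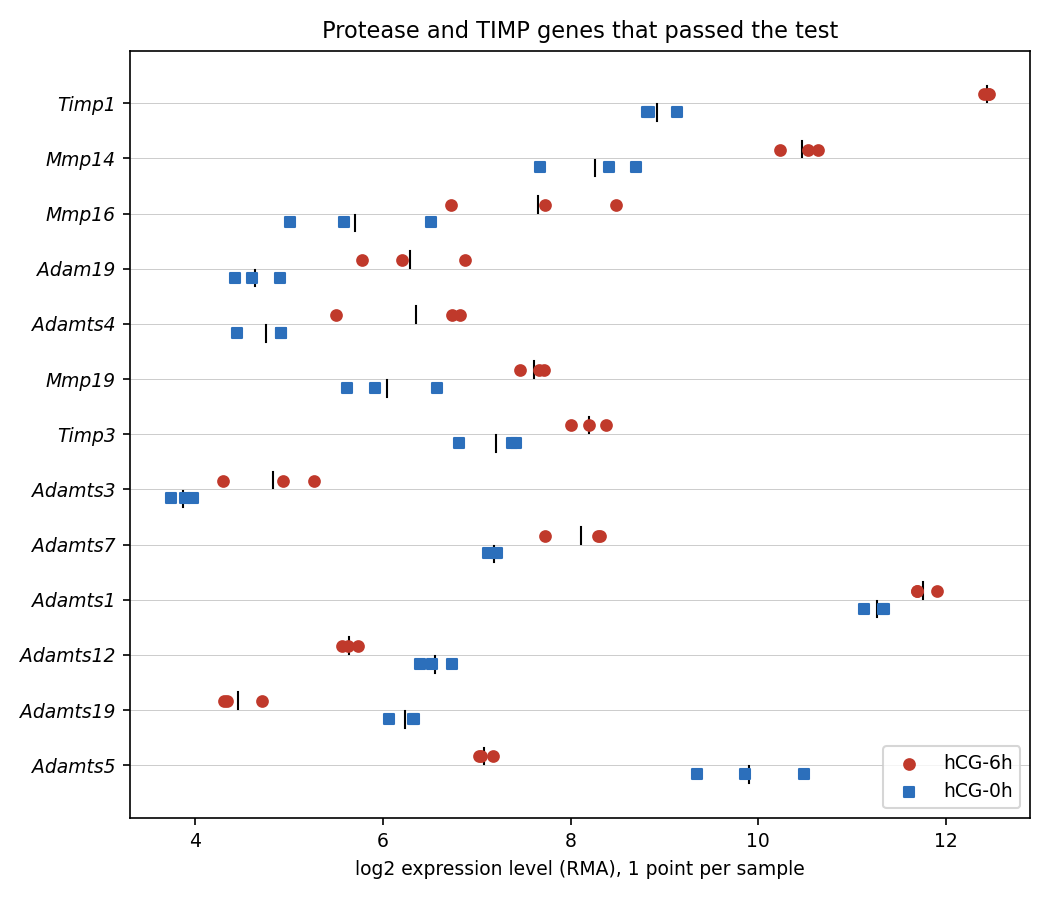
Log2 level (x axis) of the 13 members that passed, in every sample, with hCG-6h samples as red circles above hCG-0h samples as blue squares and a black bar at each group mean. The groups do not overlap in any of these rows, by the widest margin in Timp1 (12.41 to 12.46 at hCG-6h, 8.81 to 9.13 at hCG-0h).

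To show where these genes start, 250 bases before the RefSeq transcription start (GRCm38.p6) are given for Timp1, Mmp14 and Adamts1, which rose, and for Adamts12, which fell. Promoter sequences of 7 of the 13 members that passed were matched by symbol, as 9 stretches. In these, 4 motifs were searched on both strands: the cyclic AMP response element TGACGTCA, the AP-1 site TGACTCA, the GC box GGGCGG and the RUNX site TGTGGT. Capitals mark a match, written as it reads on the gene's strand, 5′ to 3′. No matches overlap in the sequences shown, and the 2 GC boxes of Mmp14 adjoin.
Timp1, chrX:20869916-20870165, plus strand: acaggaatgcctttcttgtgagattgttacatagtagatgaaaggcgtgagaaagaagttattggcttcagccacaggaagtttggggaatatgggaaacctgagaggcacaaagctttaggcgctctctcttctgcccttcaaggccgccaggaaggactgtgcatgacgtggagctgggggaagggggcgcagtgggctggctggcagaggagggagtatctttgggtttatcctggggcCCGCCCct
Mmp14, chr14:54431348-54431597, plus strand: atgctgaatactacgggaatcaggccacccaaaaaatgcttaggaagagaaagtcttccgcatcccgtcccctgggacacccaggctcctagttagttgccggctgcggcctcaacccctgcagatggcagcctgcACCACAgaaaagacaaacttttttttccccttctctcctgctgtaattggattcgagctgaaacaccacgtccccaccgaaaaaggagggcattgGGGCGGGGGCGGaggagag
Adamts1, chr16:85803114-85803363, minus strand: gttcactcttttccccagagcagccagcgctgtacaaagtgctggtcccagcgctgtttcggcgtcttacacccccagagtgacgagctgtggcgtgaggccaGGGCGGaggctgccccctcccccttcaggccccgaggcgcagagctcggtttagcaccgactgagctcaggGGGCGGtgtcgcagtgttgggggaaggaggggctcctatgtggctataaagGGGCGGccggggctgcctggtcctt
Adamts12, chr15:11064523-11064772, plus strand: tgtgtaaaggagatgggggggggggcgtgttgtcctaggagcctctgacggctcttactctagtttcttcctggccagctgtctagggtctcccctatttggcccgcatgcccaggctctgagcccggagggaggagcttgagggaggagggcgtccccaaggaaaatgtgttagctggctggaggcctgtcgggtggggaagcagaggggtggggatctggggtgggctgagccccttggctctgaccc
Adamts1 has 3 GC boxes, which begin 147, 76 and 25 bases before the start, Mmp14 has 2 and Timp1 has 1, and Adamts12 has none. A GC box is present in 32.7% of the 32851 promoter stretches of the same length in the table. The RUNX site of Mmp14 begins 114 bases before the start, and such a match is present in 14.0% of all stretches. Of the stretches not shown, those of Timp3 and Adamts3 have a GC box each. Among those of Adam19 there is an AP-1 site, 131 bases before the start, and a RUNX site. TGACTCA is present in 4.46% of all stretches and TGACGTCA, which had no match in the 9 stretches, in 1.55%.

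ADAM proteases with broad expression, several of them sheddases, were represented by 9 genes. Adam19, which is known to shed neuregulin, was the one that rose, with log2 levels of 6.20, 5.78 and 6.87 at hCG-6h, against 4.60, 4.42 and 4.90 at hCG-0h. Groups did not overlap, both probe sets rose, and the log2 change was 1.64 ± 0.28 (SE, adjusted p = 0.00739), or 3.12-fold. It stayed called in all alternatives that kept dim genes.

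Adam17, the main sheddase of EGF-like ligands and tumour necrosis factor, had log2 levels of 10.72, 10.25 and 10.60 at hCG-6h, against 10.79, 10.74 and 10.90 at hCG-0h. All samples after hCG were slightly lower, with hCG-6h sample 1 within 0.02 of the lowest sample before it, and the change of -0.29 ± 0.14 did not pass (adjusted p = 0.229). Its 95% interval ran from -0.63 to 0.06, and the other 2 probe sets had -0.24 and -0.65 and did not pass either. Adam10, the sheddase of Notch receptors and betacellulin, stood at 11.29, 11.41 and 11.36 at hCG-6h, against 11.42, 11.40 and 11.55 at hCG-0h. The groups overlapped, with a log2 change of -0.10 ± 0.10 and a 95% interval from -0.34 to 0.13. Of its 4 probe sets 1 was lower (log2 change -0.48, adjusted p = 0.0272) and the others, at -0.10, -0.28 and 0.38, did not pass.

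Adam9 averaged 9.43 ± 0.04 at hCG-6h and 9.35 ± 0.04 at hCG-0h (SD, n = 3 each), without overlap but with an adjusted p of 0.599. Adam15, a disintegrin that binds integrins, averaged 9.25 ± 0.01 at hCG-6h and 8.87 ± 0.15 at hCG-0h and narrowly missed the threshold (log2 change 0.37 ± 0.11, adjusted p = 0.0569), passing without hCG-0h sample 1 (log2 change 0.45, adjusted p = 0.0415). Its other 3 probe sets had log2 changes of 0.66, 0.44 and -0.15, and none passed. Adam8 averaged 7.04 ± 0.41 and 6.57 ± 0.26 (adjusted p = 0.219). Adam12, known from muscle and bone, had 5.10, 4.78 and 4.63 at hCG-6h, against 5.32, 6.64 and 5.19 at hCG-0h. Its groups were apart by 0.09, hCG-0h sample 2 stood over 1 log2 unit above the others, and it did not pass (adjusted p = 0.165). In the other, dimmer Adam12 probe set, hCG-0h samples stood at 4.64, 4.76 and 4.47, against 3.43, 3.53 and 4.36 at hCG-6h. Its log2 change was -0.85 ± 0.26, and it did not pass either (adjusted p = 0.0656). With the probe sets of each gene averaged, Adam12 passed as lower (log2 change -0.865, adjusted p = 0.0339). Adam28 and Adam33 were dim, with log2 changes of -0.10 and 0.03.

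Adam11, Adam22 and Adam23, which lack protease activity and are known as neuronal surface proteins, all had changes below 0, of -0.48, -0.63 and -0.31. None passed by the probe set used, though a second, dimmer Adam11 probe set was lower (log2 change -0.49, adjusted p = 0.0431). Adam22 had no overlap, at 6.19, 5.92 and 5.85 at hCG-6h, against 6.43, 7.00 and 6.43 at hCG-0h (adjusted p = 0.0573). The other 16 ADAM genes, most of them known from testis or sperm, had log2 changes between -0.40 and 0.26, and 13 of them were dim. All 16 had overlapping groups, and none passed.

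**Figure D3:**
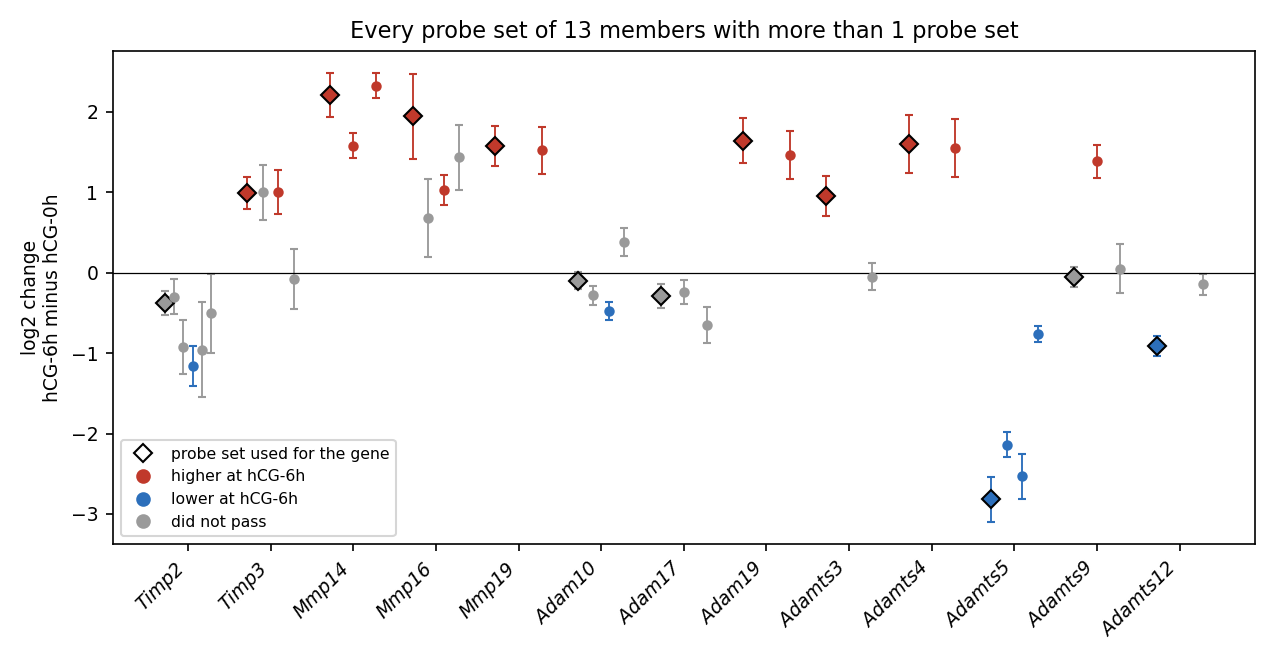
Log2 change (hCG-6h minus hCG-0h, y axis, bars for limma's standard error) of every probe set of 13 members with more than 1 probe set, with the probe set used for the gene as a diamond, red for higher and blue for lower at hCG-6h and grey for not passed. All probe sets of Mmp14, Mmp19, Adam19, Adamts4 and Adamts5 passed in one direction, while those of Timp3, Adamts3, Adamts9 and Adamts12 differ.

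Since sheddases also work through partner proteins, these and some shed proteins were set beside them. Of 9 partners of ADAM10 and ADAM17, 3 rose and none fell, where 10.8% of all genes rose and 10.5% fell (median log2 change 0.34, against 0.01 over all genes). Rhbdf2 and Rhbdf1 encode iRhoms, which bring ADAM17 to the cell surface, and rose 4.99-fold and 2.45-fold (log2 changes 2.32 ± 0.11 and 1.29 ± 0.14, SE). Tspan5, a tetraspanin that binds ADAM10, rose 2.74-fold. Of 21 measured membrane proteins known to be shed by ADAMs, 9 rose and 1 fell, or 47.6%, against 21.3% of all genes, with a median log2 change of 0.31. The largest rises were those of the EGF-like ligands Ereg (6.98 ± 0.16) and Btc (5.38 ± 0.32), the hyaluronan receptor Cd44 (3.67 ± 0.19) and the proteoglycan Sdc1 (2.91 ± 0.10), all as log2 changes. Kitl, the ligand of the oocyte's KIT receptor, was the one that fell, by 2.02 on the log2 scale (named after its values were seen). Transcripts of several substrates and of the iRhoms were thus higher at hCG-6h. By the probe set used for each gene, Adam10 and Adam17 did not pass in either direction, though another Adam10 probe set was lower.

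**Figure D4:**
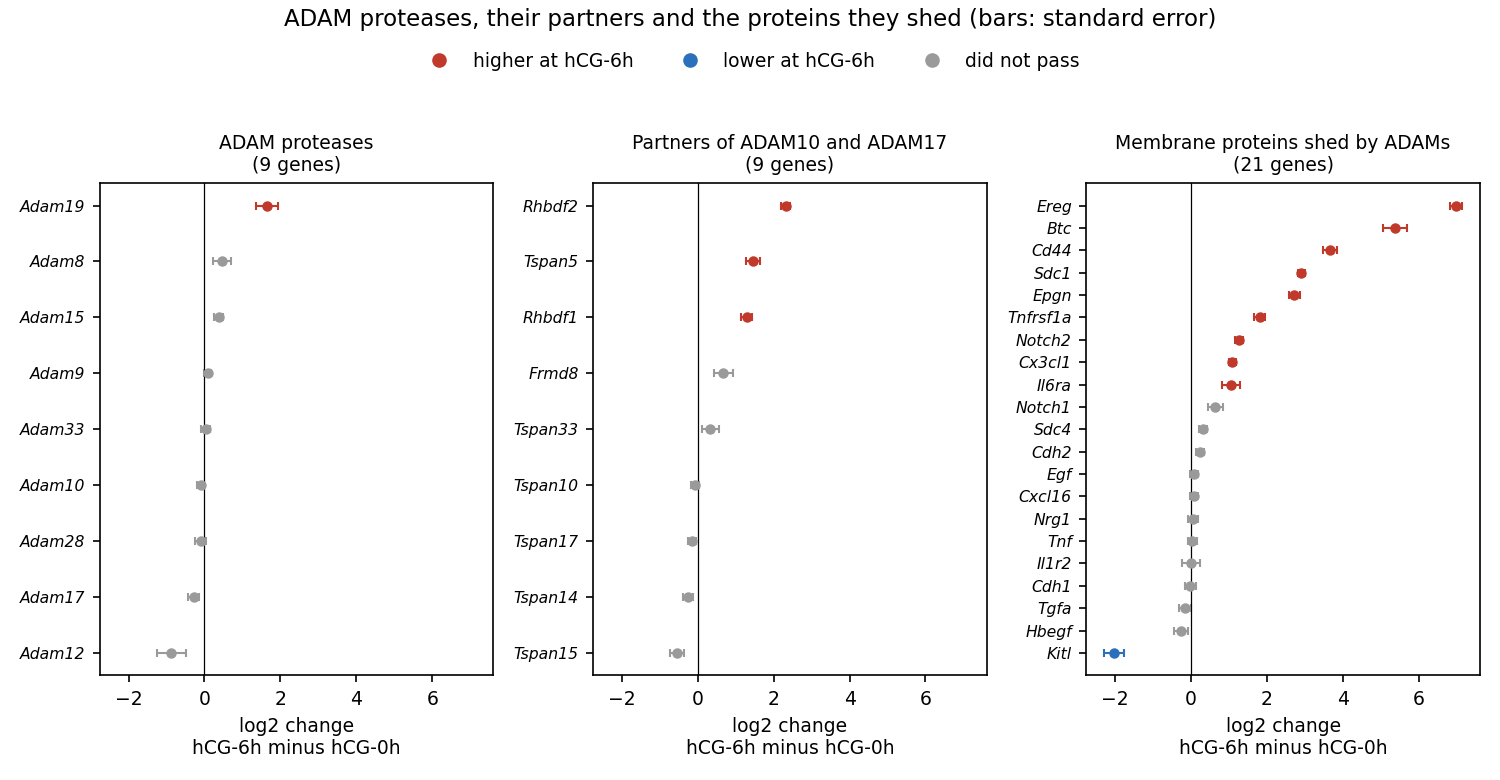
Log2 change (hCG-6h minus hCG-0h, x axis, bars for limma's standard error) of 9 ADAM proteases, 9 partners of ADAM10 and ADAM17 and 21 shed membrane proteins, red for higher and blue for lower at hCG-6h and grey for not passed. In the ADAM panel only Adam19 passed, against 3 partners and 10 shed proteins.

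Of 23 measured activators and other inhibitors of the proteases, 8 rose, none fell and 15 did not pass, where 10.8% of all genes rose and 10.5% fell, and the median log2 change was 0.25. The groups did not overlap in 9 genes that were higher at hCG-6h (19.3% of all genes) and 2 that were lower (18.7% of all genes). The 2 lower genes were Spock2 and Papln, which did not pass (log2 changes of -0.64 and -0.43, adjusted p = 0.0875 and 0.0887, named after their values were seen). Plaur, the receptor that holds urokinase at the cell surface, rose 22.6-fold. Pcsk5 and Pcsk6, proprotein convertases that cut the proforms of such enzymes, rose 6.45-fold and 3.34-fold, with adjusted p of 0.000337 and 0.00437. Plat, the tissue plasminogen activator, passed narrowly (log2 change 1.72 ± 0.49, adjusted p = 0.0495), and its call was lost when any 1 sample of hCG-0h, or sample 3 of hCG-6h, was left out (log2 changes of 1.65 to 2.00, adjusted p = 0.0588 to 0.132). Without sample 1 of hCG-6h the change was 1.11 (adjusted p = 0.00921). Furin, the convertase that activates MMP14 and many ADAMs, rose 3.05-fold (named after its values were seen). The membrane-anchored MMP inhibitor gene Reck averaged 5.93 at hCG-6h and 6.61 at hCG-0h and did not pass (adjusted p = 0.303).

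Of 27 matrix proteins that these families cut, 9 rose and none fell, where 10.8% of all genes rose and 10.5% fell, with a median log2 change of 0.25. The largest rises were in basement membrane and interstitial components, Col4a1 (5.53 ± 0.34), Col4a2 (4.26 ± 0.26), Col18a1 (2.31 ± 0.23) and Fn1 (2.06 ± 0.19), given as log2 changes with SE. Vcan, the versican of the cumulus matrix that ADAMTS enzymes cut, rose 3.15-fold, and Comp, a substrate of ADAMTS7 and ADAMTS12, rose 1.99-fold (both named after their values were seen). Acan, the aggrecan gene, averaged 6.40 at hCG-6h and 6.45 at hCG-0h and did not pass.

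The median log2 change of 12 further listed genes outside the families by name, not all of them relatives, was -0.16, against 0.01 over all genes. Of the 12, 3 fell and none rose (10.5% of all genes fell and 10.8% rose). These were Adamtsl2, an ADAMTS-like protein without a protease domain (-0.86 ± 0.11), Lrp1, a receptor that takes up MMPs and ADAMTS enzymes (-0.70 ± 0.13), and Ece1, an endothelin-converting enzyme (-0.68 ± 0.10), all as log2 changes with SE. With the probe set of largest interquartile range, Ece1 had -0.63 ± 0.50 and did not pass (adjusted p = 0.442). For Lrp1, however, another probe set of the same gene, that of largest interquartile range, rose by 0.93. The adjusted p was 0.0047 with such probe sets standing for all genes. The direction of Lrp1 thus depends on the probe set.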

How the data were processed

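Expression was measured on single-colour arrays, 1 per sample, with 3 hCG-6h and 3 hCG-0h samples grouped by their titles. The deposited values are log2 values with 2 decimals for 45101 probe sets. Per the submitters' processing notes, the authors used GCOS, Affymetrix Expression Console 1.1 and RMA (background subtraction, quantile normalisation and probe summary). A genome build is not named in the labels used here. Per the labels' protocols, RNA was amplified with a whole-transcriptome kit, and the extraction text speaks of cumulus-oocyte complexes where other labels speak of cumulus cells. Gene names came from the platform annotation (34958 probe sets with 1 symbol, 932 with several, 9211 without a listed gene), and all 65 members matched RefSeq gene identifiers.

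Groups were compared with limma 3.58.1 in R 4.3.3 (lmFit, eBayes, group as the only term, two-sided, Benjamini-Hochberg over 18194 genes, threshold 0.05). Changes are hCG-6h minus hCG-0h. Other probe sets were read from a fit over all 34958. Families and lists are described by counts and medians. Every member that passed and the 23 measured of 25 fixed members are named, as are up to 4 members of each related list, those that passed with the largest changes. Some other genes are named outside this rule, among them Reck and Acan, which did not pass. The members, lists and this rule were chosen with earlier results of these data known. Other settings were a trend and robust variance, a replicate block, repeated quantile normalisation, centring on array medians, no dim genes, array weights, other choices of probe set, hCG-6h sample 1 alone and each sample left out in turn. The same-numbered samples did not deviate together (correlations of -0.016 to 0.029). Scripts were tested on simulated data. No value column was left unmapped. The number of arrays limits precision.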

Additional observations from a re-analysis of the deposited data

How the results depend on the processing

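Of the 13 members that passed, 5 kept their call under every alternative run (Timp1, Adamts5, Adamts7, Adamts19 and Adam19, the last 2 not tested where dim genes were left out), and 8 lost it under at least 1. When 1 sample was left out, 2919 to 3210 genes passed in place of 3873, 6 to 9 members rose in place of 10 and 3 to 5 fell in place of 3. The lowest count of 6 came without sample 2 or 3 of hCG-0h or sample 3 of hCG-6h, and the highest of 5 without hCG-0h sample 1. With hCG-6h sample 1 alone, the one whose description gives 6 h, 1576 genes passed, 4 members rose and 2 fell. Averaging the probe sets of each gene gave 6 members that fell, and the probe set with the largest interquartile range gave 5. These choices moved Adamts9 to log2 changes of 0.46 and 1.38, in place of -0.05, and Lrp1 to 0.12 and 0.93, in place of -0.70. The second also moved Timp3 to -0.077, and averaging moved Adamts3 to 0.45, in place of 0.96, Mmp16 to 1.27, in place of 1.95, Plat to 0.86, in place of 1.72, Fn1 to 1.26, in place of 2.06, and Adamts12 to -0.53, in place of -0.91. The probe set of largest interquartile range put Adam15 at -0.15 (adjusted p = 0.733), in place of 0.37. With it, Adam10 passed as lower, at -0.48 (adjusted p = 0.0276), in place of -0.10. The causes were not tested. The sample number as a replicate block gave 3264 genes, 8 members higher and 3 lower, with Adamts1 (adjusted p = 0.0796) and Adamts3 (adjusted p = 0.0569) no longer called, but the numbers do not pair the samples. Among 33 genes of the related lists that passed, 22 kept their call throughout. Dim members have compressed changes, so a missed threshold there does not show that they were alike.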
